A study of Caenorhabditis elegans with 2 samples.

Results

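The small subunit ribosomal protein genes of Caenorhabditis elegans were examined for binding of UNC-62 in L1 larvae, the first larval stage. Members were the protein-coding genes of Ensembl WBcel235 whose symbol starts with rps-, and there were 31 of them among 19973 protein-coding genes on the 6 nuclear chromosomes. The animals were of strain OP600, which carries the unc119(ed3) mutation and the transgene wgIs600, in which unc-62 is joined to a TY1, EGFP and FLAG tag and unc119 is supplied as a second gene. All animals of the series shared these alleles, and no untagged strain and no control list were analysed here. The 2 biological replicates were whole larvae, not separated by sex, so values average over all cell types, and they form the only group, UNC-62 L1. The antibody field names unc-62, whereas the description gives the eGFP fusion as the target, so which epitope was used is not settled here.

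UNC-62 is a homeodomain transcription factor of the Meis class that acts with Pbx-class partners such as CEH-20. The small ribosomal subunit reads the messenger RNA: its head and body close around the message, its platform holds the exit side of the channel, and its proteins are needed in near-equal amounts in every growing cell. Genes of these proteins are short and highly transcribed, and in C. elegans most of their messages receive a spliced leader, a short RNA joined by trans-splicing to an acceptor at the annotated 5′ end. Transcription then starts upstream of that end, in a stretch that is removed. Distances below were measured from the annotated 5′ end.

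Each list of binding sites is made of entries, fixed-width intervals with a summit in the middle and a signal value, the authors' own measure of enrichment, which has no unit. The pooled list and both replicate lists held 30000 entries each, so they reach far into background, and an entry in them is not by itself evidence of binding. The 119 entries of the IDR list, selected by the irreproducible discovery rate, were the 119 entries of the pooled list with the highest signal, and the weakest had a signal of 35.0. The median signal was 11.9 in the pooled list, 7.05 in the replicate 1 list and 7.22 in the replicate 2 list. Signals were compared only within a list. The lists hold no read counts, so depth and counting error are unknown. With 1 group of 2 replicates and neighbouring genes that share summits, no test was run, and counts and medians of the members are set beside those of all other genes as a description.

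The sequence at the 5′ ends was read first, for the letters of a splice acceptor, and no data on trans-splicing were used. In 28 of 31 rps genes (90.3%) the bases AG stood directly before the annotated 5′ end, against 27.5% of the 19942 other protein-coding genes, and in 15 (48.4%) these bases were part of TTTCAG, the consensus acceptor, against 12.2%. Among the 15 were all 6 members with an IDR peak, but also rps-3, without an entry, and rps-8, with the weakest entry. The share with TTTCAG was not computed for other genes with an IDR summit, so no link to the peaks is drawn. The 5′ ends are shown for 3 members with an IDR peak, for rps-27, whose entry lay inside the gene, and for rps-3, which had no entry within 1 kb. Each stretch holds the 20 bases before the 5′ end and the 10 after it, read along the gene from ce11, with TTTCAG in capitals where it ends at the 5′ end. They lie at chrIII:5679278-5679307 (rps-12), chrIII:4475898-4475927 (rps-1), chrIV:1659671-1659700 (rps-28), chrV:104068-104097 (rps-27) and chrIII:6206783-6206812 (rps-3).
rps-12: tcgaaatttctaatTTTCAGgtaagcatca
rps-1: ttatgtattcctatTTTCAGacacagcttg
rps-28: ataatttcaatttcTTTCAGgtaatcagtc
rps-27: tactatttattttctcaattcacatatttt
rps-3: attaatattcaaatTTTCAGctttcgtcaa

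The sequence under the summits is shown for the 3 members with an IDR peak for which sequence is printed here, as 201 bases centred on the summit and read along the gene. Capitals mark matches, on either strand, to the searched motifs named further on and to a shared word described beside them. The windows lie at chrIII:5679019-5679219 (rps-12), chrIII:4475587-4475787 (rps-1) and chrIV:1659165-1659365 (rps-28), all on the plus strand and in intergenic sequence.
rps-12: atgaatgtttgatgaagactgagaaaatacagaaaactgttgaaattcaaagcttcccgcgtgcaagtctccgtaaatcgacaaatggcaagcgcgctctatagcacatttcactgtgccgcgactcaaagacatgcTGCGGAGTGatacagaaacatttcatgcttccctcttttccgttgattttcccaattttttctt
rps-1: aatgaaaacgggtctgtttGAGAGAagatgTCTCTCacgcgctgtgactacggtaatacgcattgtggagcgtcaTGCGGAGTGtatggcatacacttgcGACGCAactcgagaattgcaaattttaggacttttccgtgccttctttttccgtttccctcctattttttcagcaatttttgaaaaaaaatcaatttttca
rps-28: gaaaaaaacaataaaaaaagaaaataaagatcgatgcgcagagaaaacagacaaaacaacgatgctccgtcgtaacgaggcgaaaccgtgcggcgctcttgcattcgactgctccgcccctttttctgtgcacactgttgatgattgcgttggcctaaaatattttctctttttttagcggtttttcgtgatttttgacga

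The first question was how many rps genes had an entry and how strong it was. A pooled entry with its summit within 1 kb of the 5′ end was present at 29 of 31 rps genes (93.5%), against 49% of other protein-coding genes. The strongest entry per gene was an IDR peak at 6 of these 29 rps genes (20.7%), against 1.05% of the 9770 other genes with an entry. It ranked among the first 1000 of the pooled list at 10 rps genes (34.5%), against 6.06% of the other genes. The median signal was 15.6 over the 29 rps genes, with quartiles of 12.5 and 31.4, and 12.6 over the other genes, with quartiles of 10.7 and 15.4. Of the rps genes, 21 lay above the median of the other genes, 11 above their 90th percentile and 5 above their 99th percentile, while 8 lay below the median. The rps genes were therefore spread over nearly the whole list. The 19 outside the first 1000 had a median signal of 13.7.

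**Figure D1:**
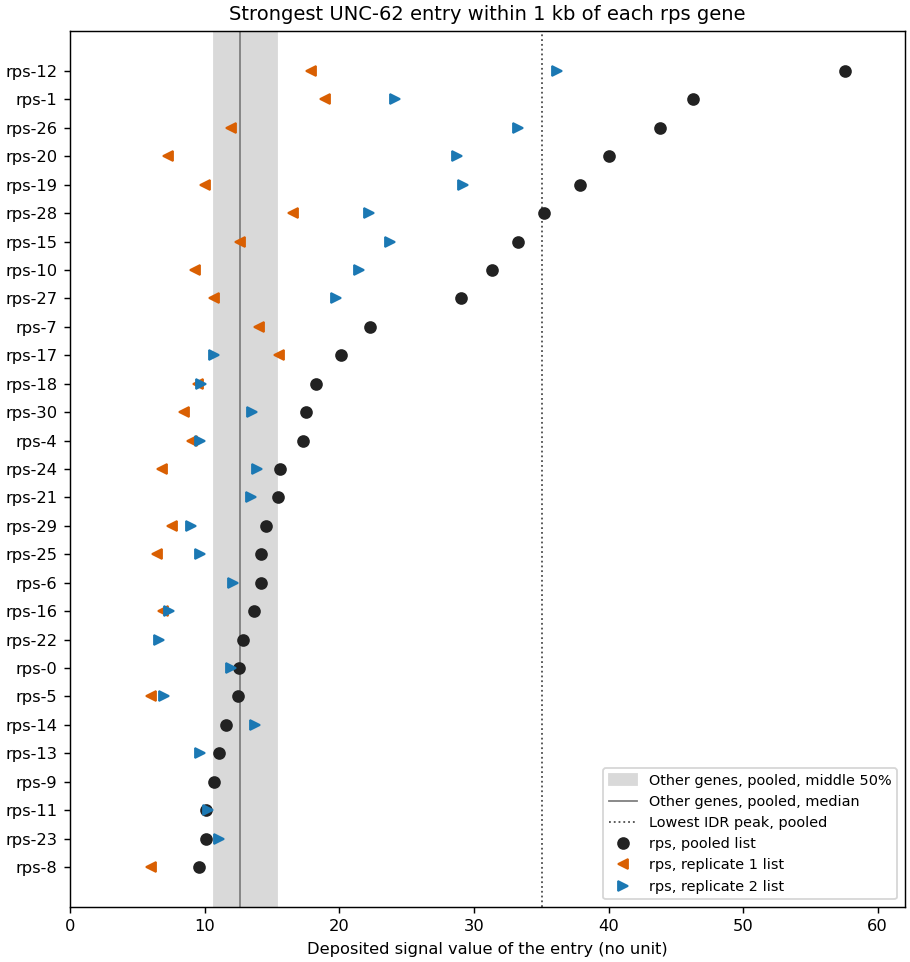
Deposited signal (x axis, no unit) of the strongest entry within 1 kb of each of 29 rps genes (rows, strongest at the top) in the pooled list (circles), and of the entry over the same summit in replicate 1 (left-pointing triangles) and replicate 2 (right-pointing triangles); a missing triangle means no entry there. The band and line give the quartiles and median of other genes in the pooled list only, and the dotted line the lowest IDR peak, at 35.0, which 6 rps genes pass.

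The 6 rps genes with an IDR peak encode 4 proteins of the head of the subunit (rps-12, rps-20, rps-19 and rps-28) and 2 of its body and platform (rps-1 and rps-26). The strongest was rps-12, with a pooled signal of 57.6 and rank 23, and with signals of 17.9 in replicate 1 (rank 91) and 36.2 in replicate 2 (rank 33). Its entry (chrIII:5678951-5679286) had its summit 179 bp upstream of the 5′ end. The entry of rps-1 (chrIII:4475519-4475854), whose protein lies near the exit of the messenger RNA channel, had a pooled signal of 46.3 (rank 41). In the replicates it had 18.9 (rank 57) and 24.2 (rank 112). These were the only 2 rps genes with an entry among the first 119 of both replicate lists. The share of other genes in both was not computed.

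At rps-26, whose protein also lines the exit of the channel, the pooled signal was 43.8 (rank 47), with 11.97 in replicate 1 (rank 1505) and 33.3 in replicate 2 (rank 44). At rps-20 the pooled signal was 40.1 (rank 62), with 7.30 in replicate 1 (rank 13604) and 28.7 in replicate 2 (rank 68). At rps-19, whose human counterpart is mutated in Diamond-Blackfan anaemia, a failure of red cell production, it was 37.9 (rank 85), with 9.99 in replicate 1 (rank 4103) and 29.2 in replicate 2 (rank 61). These 3 members had the largest ratios between their replicate ranks, with replicate 1 ranks 34.2, 200.1 and 67.3 times those of replicate 2 for rps-26, rps-20 and rps-19. The rps-20 signal in replicate 1 was close to the median of that list. The sixth member, rps-28, had a pooled signal of 35.2 (rank 117), and its replicate values were 16.5 (rank 152) and 22.2 (rank 148), nearly equal in rank.

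Just below the IDR list stood rps-15, rps-10 and rps-27, so the edge of that list runs through a continuous series of rps values. The protein of rps-15 sits in the head near the decoding site, and its entry (chrI:8816362-8816697) had a pooled signal of 33.2 (rank 142), with 12.6 in replicate 1 and 23.8 in replicate 2. At rps-10, a head protein near the entry of the channel, the pooled signal was 31.4 (rank 173), with 9.29 in replicate 1 and 21.4 in replicate 2. At rps-27, which encodes a zinc-binding protein, it was 29.02 (rank 229), with 10.7 in replicate 1 and 19.7 in replicate 2. The tenth, rps-7, had 22.3 (rank 767) in the pooled list and 14.02 in replicate 1 (rank 516), with no replicate 2 entry over the summit.

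Below these, pooled signals ran from 20.1 at rps-17 to 9.59 at rps-8, near the lowest value of the list, 9.05. The entry of rps-17, a head protein, ranked 243 in replicate 1 with a signal of 15.5 and 3514 in replicate 2 with a signal of 10.7, the reverse of the order at rps-20. At rps-6, whose protein is the classical substrate of S6 kinase, the pooled signal was 14.2 (rank 7868), with no entry over the summit in replicate 1 and 12.1 in replicate 2. At rps-14, a platform protein, it was 11.6 (rank 16328), with none in replicate 1 and 13.7 in replicate 2. The 3 weakest members were rps-11 with 10.1, rps-23 with 10.1 and rps-8. Their values were below the lower quartile of other genes.

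Entries were missing within 1 kb at rps-2 and rps-3, whose proteins line the entry of the messenger RNA channel. The nearest summit to rps-3 lay 1021 bp downstream of its 5′ end, just outside the window, with a signal of 12.996, and that to rps-2 lay 3371 bp downstream with a signal of 9.37. The members farthest inside the window were rps-18, at 859 bp upstream with a signal of 18.3, and rps-8, at 852 bp downstream. In the replicate lists rps-3 had a weak entry in replicate 1 (signal 6.15) and rps-2 a weak entry in replicate 2 (signal 6.21). Neither had an entry within 1 kb in the other replicate.

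Head and body proteins were then set side by side. Of the 13 head genes, 12 had an entry, with a median signal of 25.8, and 6 were among the first 1000. The 18 body and platform genes had 17 entries with a median signal of 14.2, and 4 among the first 1000. All 12 head entries had an entry over the summit in both replicates, while 6 of the 17 body entries did, 8 had one in replicate 2 only, 2 in replicate 1 only and 1, at rps-9, in neither. The groups overlapped, since head genes spanned 12.5 to 57.6 and body genes 9.59 to 46.3. The difference was not tested.

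The next question was whether the replicates gave the same picture. Over all members, 18 of 29 (62.1%) had an entry over the pooled summit in both replicates, against 26.8% of other genes. Among these 18, replicate 2 gave the better rank at 15 and replicate 1 at 3 (rps-1, rps-17 and rps-18), whereas other genes were nearly balanced, with 1357 better in replicate 2 and 1263 in replicate 1. Strong entries and the large subunit leaned the same way as the rps genes: 18 rpl genes ranked better in replicate 2 and 8 in replicate 1, and of other genes with an IDR summit 71 ranked better in replicate 2 and 22 in replicate 1. The median rank of members with an entry was 5409.5 in replicate 1 and 1549.5 in replicate 2, against 10278.5 and 9282 for other genes. Signals of the 18 members were correlated between replicates (Spearman rho 0.65), against 0.53 over 26 rpl genes and 0.17 over 2620 other genes. Within the strong rps genes there was little such order: rho was 0.2 over the 9 of the 10 strongest with both values and -0.09 over the 6 with an IDR peak. Other genes with strong entries had little such order as well. Their rho was -0.07 over 471 genes among the first 1000 and -0.07 over 93 with an IDR summit. The share with both values was 61.9% for rpl genes, nearly that of rps genes. Genes that share a library and in part a summit are not independent points, and this is a description.

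The count of strong members therefore depended on the replicate. Among the first 119 entries, replicate 1 alone had 2 of its 22 rps genes with an entry, rps-1 and rps-12, against 0.86% of other genes. Replicate 2 alone had 6 of its 28, adding rps-26, rps-19, rps-20 and rps-15, against 1.05% of other genes. Among the first 1000 entries there were 5 rps genes in replicate 1 (rps-1, rps-12, rps-28, rps-17 and rps-7), against 5.31% of other genes, and 9 in replicate 2, against 6% of other genes. Of these, rps-1, rps-12 and rps-28 were in both sets. The share of other genes in both sets was not computed, so whether this overlap is unusual is unknown. Depth is unknown, and its part in the difference between replicates was not tested.

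**Figure D2:**
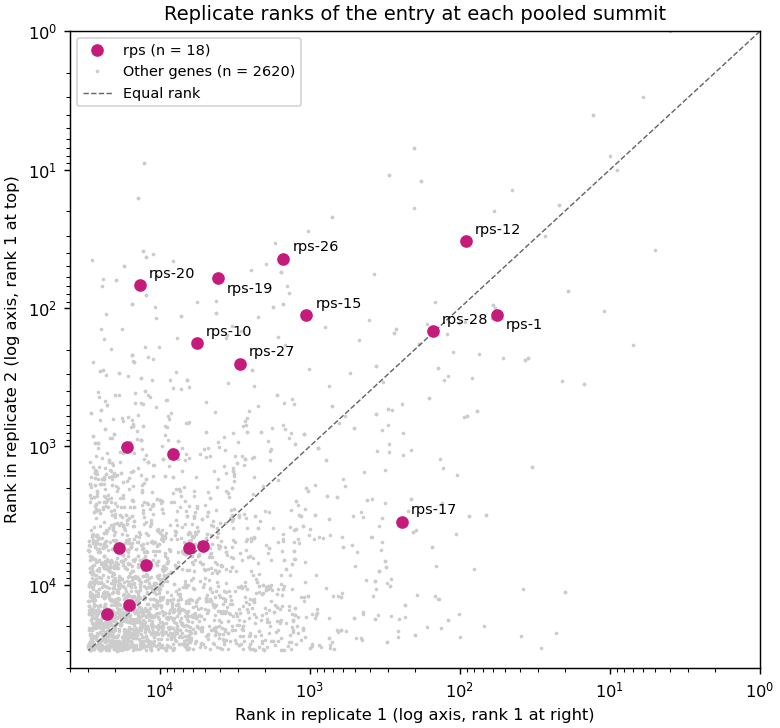
Rank in replicate 1 (x axis) and in replicate 2 (y axis) of the entry over each pooled summit, on log axes with rank 1 at the top right, for 18 rps genes (large points, named for strong members and rps-17) and 2620 other genes (small points). Of the rps points, 15 lie above the dashed line of equal rank, toward replicate 2.

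Position was the next property. The summit lay upstream of the 5′ end at 19 of 29 rps genes (65.5%), against 58.2% of other genes, so the share upstream was close to that of other genes. The median distance to the 5′ end was 287 bp over rps genes and 445 bp over all other genes. Upstream summits had a median offset of -279 bp for rps genes and -431 bp for other genes, negative values lying before the 5′ end. Short distances were not particular to rps genes. Over rpl genes these medians were 339.5 bp and -298 bp. Over the 592 other genes among the first 1000 they were 324.5 bp and -304 bp. Between 150 and 500 bp upstream lay 15 rps summits of 29, against 22.8% of other genes. Among the first 1000 entries, 8 of 10 rps summits lay in this interval, against 38.3% of the 592 other genes among the first 1000. The exceptions were rps-10, at 501 bp upstream, and rps-27, at 434 bp downstream in an intron. The 6 IDR summits lay 179 bp (rps-12), 231 bp (rps-1), 243 bp (rps-20), 279 bp (rps-19), 344 bp (rps-26) and 426 bp (rps-28) upstream, all in intergenic sequence. Their median distance was 261 bp, against 281 bp for the 103 other genes with an IDR summit within 1 kb.

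Summits inside the gene made up 9 of the 19 rps entries outside the first 1000 and 1 of the 10 inside it. Over all entries, 10 of 29 rps summits lay inside the gene. Other genes had a similar pattern, with 103 of 592 summits inside the gene among the first 1000 and 3790 of 9770 over all their entries. By annotation 18 summits were intergenic, 5 in introns, 4 in coding exons (rps-16, rps-13, rps-9 and rps-23) and 2 in untranslated exons (rps-11 and rps-8). Intergenic here means outside every protein-coding gene. The rps genes are short, with a median length of 756 bp against 2030 bp for other genes, so the 1 kb window covers most of each gene.

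**Figure D3:**
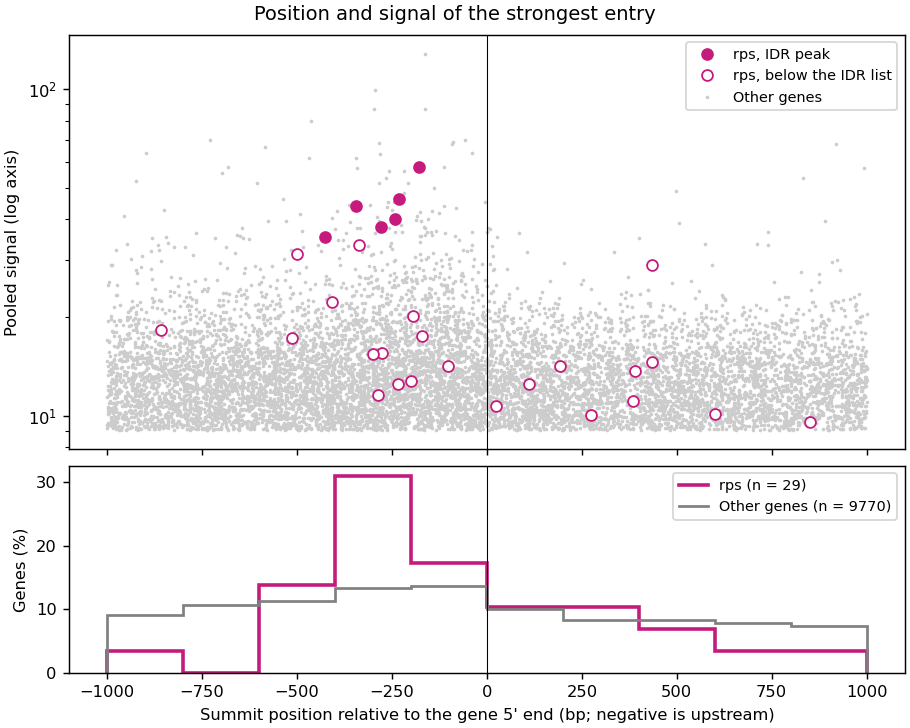
Top, position of the strongest summit relative to the gene 5′ end (x axis, bp, negative is upstream) and pooled signal (y axis, log) for rps genes with an IDR peak (filled), other rps genes (open) and other genes (dots). Bottom, share of genes per 200 bp bin; the 6 filled points all lie between 426 and 179 bp upstream.

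Many rps genes share their upstream sequence with another gene. A gene on the other strand had its 5′ end within 1 kb upstream of 19 of 31 rps genes (61.3%), against 17.7% of other genes. Among rps genes with such a divergent neighbour and an entry, 5 of 18 had an IDR summit, against 2.28% of other genes with a divergent neighbour. Among rps genes without one, 1 of 11 had an IDR summit (rps-28), against 0.753% of other genes without one. Divergent rps genes had a median signal of 17.9 and the others 15.5, against 13.1 and 12.5 in the same classes of other genes.

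At 4 of the 6 IDR summits the neighbour was nearer than the rps gene. The rps-12 summit lay 114 bp from the 5′ end of ska-3, which encodes a spindle and kinetochore protein, and the rps-26 summit 113 bp from that of tmem-107, a gene of the ciliary transition zone. The rps-20 summit lay 154 bp from ekl-4, and the rps-19 summit 166 bp from hsr-9, a homologue of a DNA damage response protein. At rps-1 the other gene was ifet-1, a translational repressor that binds the cap-binding protein, at 537 bp, and rps-1 was nearer. The rps-28 summit had Y41D4B.4 at 845 bp. With each entry given only to its nearest gene, 22 rps genes kept an entry and 2 an IDR summit, rps-1 and rps-28, against 0.831% of other genes. The entries do not say which gene of a pair a summit belongs to.

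In 3 cases the neighbour was itself a gene of a large subunit ribosomal protein. The rps-10 summit lay 109 bp from the 5′ end of rpl-24.1 and 501 bp from that of rps-10, so the same entry of signal 31.4 counts for both genes. The rps-30 summit lay 172 bp from rps-30 and 327 bp from rpl-39, with a signal of 17.5, and it was also 894 bp from C26F1.3. The rps-14 summit lay 287 bp from rps-14 and 376 bp from rpl-36, with a signal of 11.6, and ndab-2 was 877 bp away. These 3 summits ranged in signal from just below the IDR list to below the median of other genes. At rps-15 the sharing gene was F36A2.9, 444 bp away, and at rps-6 it was usp-3, 428 bp away. The rps-18 summit lay inside sec-61.A, a gene of the protein translocation channel, 444 bp from its 5′ end and nearer to it than to rps-18.

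Small nucleolar RNA genes lie in or beside several members. A small RNA gene was within 300 bp of the summit at 6 of 29 rps genes. That share was not computed for other genes, so whether it is unusual is unknown. In each case the small RNA gene was a snoRNA gene: rps-12, rps-26, rps-10, rps-29, rps-13 and rps-23. For rps-12 it was F54E7.10, inside the rps gene and 259 bp from the summit, for rps-26 F39B2.14 at 174 bp and for rps-10 D1007.20 at 243 bp. Without these 6 members, 4 rps genes with an IDR summit and a median signal of 15.6 remained. All 31-base words of the 201 bp summit window occurred once in the genome at 27 of the 29 rps genes, and the exceptions were rps-24 (94.7%) and rps-13 (98.8%), neither of which had an IDR peak.

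The summit windows were searched for motifs on both strands. A match to TGATNNAT can hold GATAA, and neighbouring matches of other motifs can overlap. The Meis hexamer TGACAG was in 0 of 29 rps windows, against 6.58% of the windows of other genes, and the Hox and Pbx composite TGATNNAT was in 0, against 14.8%. No match says only that these letters are absent from these 201 bases. In the 250 bases before and 50 after the 5′ end, TGACAG was in 1 of 31 rps genes, rps-16, against 9.69% of other genes, and TGATNNAT in rps-20, rps-24 and rps-27, against 23.6%. The GATA core GATAA was in 12 of 29 summit windows, close to the 41.7% of other genes, and TATAAA in 9, against 24.8%.

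A further 3 hexamers were taken from an earlier ranking of strong windows in these data. GACGCA was in 1 rps window, that of rps-1, against 5.53% of other windows. GCGCGA was in 3, or 10.3% (rps-17, rps-22 and rps-30), against 2.78%, and none of these was among the first 1000 entries. GAGAGA was in 4, or 13.8% (rps-1, rps-16, rps-18 and rps-24), against 11.8%, and the rps-1 window held it once on each strand, 5 bases apart. Among the first 1000 entries, the rps shares were below those of other genes. There GAGAGA was in 1 of 10 rps windows, against 26.5% of other windows. GACGCA was in 1 of 10, against 19.3%, and GCGCGA in 0 of 10, against 9.12%. The windows of rps-12 and rps-1, the strongest members, shared the word TGCGGAGTG, noticed when these sequences were compared. It was in the windows of 5 other genes among 9770 (0.0512%): ska-3 and ifet-1, which have the same summits, and dld-1, gsy-1 and sna-1. Of the last 3, dld-1 had the highest signal, 25.7 (rank 372), 222 bp upstream of the 5′ end.

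Base composition also varied along the windows, a property examined after the sequences had been seen. Where the summit was upstream, the 100 bases toward the gene held a median of 59% pyrimidines on the gene strand and the 100 bases away from it 47%, over 19 rps genes. Over 5683 other genes both medians were 52%. The side toward the gene was richer at 15 of the 19 rps genes, against 49.2% of other genes. With upstream summits among the first 1000 entries only, it was richer at 8 of 9 rps genes and at 294 of 474 other genes. The medians toward and away from the gene were then 62% and 45% for rps genes, and 54% and 51% for other genes. Strong upstream summits of other genes therefore leaned the same way, though less. GC content of the summit window had a median of 37.8% over 29 rps genes and 33.3% over other genes. Over the 6 rps windows with an IDR peak it was 41.8%, and over the windows of 103 other genes with an IDR summit it was 43.8%.

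Finally the small subunit was set beside its nearest relatives. Of 47 rpl genes, which encode the large subunit, 42 had an entry (89.4%). Of these, 7 had an IDR summit (16.7%) and 18 ranked among the first 1000 (42.9%). The same shares were 93.5%, 20.7% and 34.5% for rps genes, and 49%, 1.05% and 6.06% for all genes other than rps. The median signal of rpl genes was 19.4, against 15.6 for rps genes. The strongest rpl gene, rpl-3, reached 99.7 (rank 3) and its entry exceeded that of every rps gene, as did those of rpl-20, rpl-35 and rpl-15, while rpl-12, rpl-27 and rpl-25.2 lay between 35.9 and 37.3. Of 29 mrps genes, which encode the small subunit of the mitochondrial ribosome, 15 had an entry (51.7%), close to the share of other genes. Their median signal was 14.2, with 0 IDR summits and 2 genes among the first 1000, and the strongest was mrps-7 with 25.7 (rank 371). The small subunit genes without an rps- symbol were ubl-1, which encodes a ubiquitin-like fusion protein, with a signal of 19.6 (rank 1561), and rack-1, a scaffold on the head, with 10.1 (rank 23293). Neither had an entry over the summit in replicate 1.

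**Figure D4:**
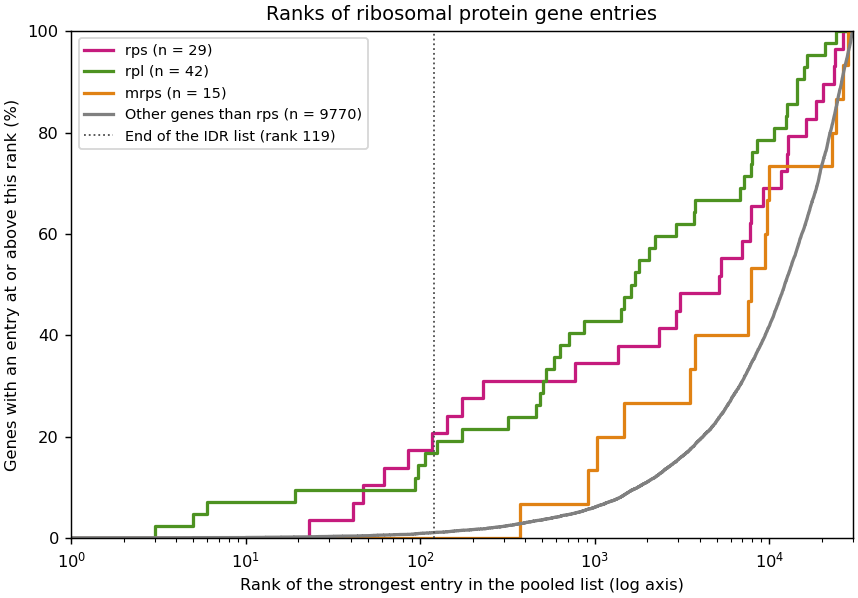
Cumulative share of genes with an entry (y axis, %) at or above each rank of the pooled list (x axis, log), for 29 rps, 42 rpl and 15 mrps genes and for 9770 genes other than rps. At rank 119, the end of the IDR list, the rps curve stands at 20.7% and the curve of other genes at 1.05%.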

How the data were processed

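UNC-62 ChIP-seq of L1 larvae gave 2 replicate libraries, whose fragments were selected at 150 to 350 bp per the labels. The authors deposited a list per replicate, a pooled list and an IDR list. Per the deposited file descriptions, lists derived from the alignments of the ChIP libraries, for some with 1 further file. Control libraries were not analysed here. How reads were aligned, how entries were called and which IDR threshold applied are not given in the sources used here. Values used as deposited were the signal value per entry and the −log10 q-value; q-values only ranked entries in an alternative. Lists of build ce11 were used, whose sequence is WBcel235, and those of ce10 were not used here. Genes came from Ensembl release 115, without 12 mitochondrial genes. Sequences came from the RefSeq WBcel235 genome, in which the first coding base began ATG in 78 of 78 rps and rpl genes checked.

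For each gene the entry with the highest signal and a summit within 1 kb of the 5′ end of the gene record was taken, and replicate values came from the strongest entry over that summit. Ranks follow signal. Entries shared by neighbouring genes counted for each. The scripts were tested on artificial input with known answers. Members and lists were chosen with earlier results of these data known. Genes named in full were those with an IDR summit, the 10 strongest, the 3 weakest, those without an entry, those with the largest rank ratios, those beside the IDR threshold, rps-6, rps-14 and genes sharing a named summit; others were named after their values were seen. An item under this rule is not reported here. Alternatives covered windows, 5′ ends, nearest genes, replicates and thresholds. Python 3.11.15, numpy 2.4.6, pandas 2.3.3, scipy 1.17.1 and matplotlib 3.10.9 were used.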

Additional observations from a re-analysis of the deposited data

How the results depend on the processing

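Of 37 alternatives, 28 left a value as reported, by which counts stayed within 1.5 times and medians within the SD between replicates, and 9 moved it; 4 of the 37 were chosen after seeing the data. The count of rps genes with an entry ranged from 22 to 30. The count with an IDR summit was 6 with windows of 500 bp and 2 kb, 2 with the single nearest gene, 2 where the member had to be the nearest gene to its strongest entry, and 3 with IDR peaks above the median signal. With 1 replicate left out there is no IDR list, and the first 119 entries of the remaining list stood in for it, with 2 to 6 rps genes: 2 without replicate 2 (rps-1 and rps-12) and 6 without replicate 1, which include rps-15 and not rps-28. The median signal was 17.9 with a 2 kb window and 9.40 to 12.1 with 1 replicate left out, on each list's own scale. The median distance was 397.5 bp with a 2 kb window and 301.5 to 328 bp with 1 replicate left out. The wider window admits farther entries and the stricter IDR list holds fewer peaks, both by construction. Median signals with 1 replicate left out come from lists of another scale, with medians of 7.05 and 7.22 against 11.9 pooled. They count among the 9 moved values, but they say nothing about a change in strength. For the other settings the cause was not tested. No paired analysis was possible because there is 1 group. Depth is unknown and limits every comparison of strength between replicates.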

Other observations

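Genes of ribosome assembly and the nucleolus, not limited to the small subunit, and genes of TOR and S6 kinase signalling were examined in the same way. Of 14 assembly and nucleolar genes, 13 had an entry within 1 kb, against 49% of protein-coding genes other than rps, with a median signal of 14.1, against 12.6 for genes other than rps. The strongest were 2 genes of the snoRNA-guided methylation complex. At nol-58, which encodes a core protein of that complex, the summit was an IDR peak 335 bp upstream, with a signal of 37.6 (rank 90), a replicate 1 rank of 1765 and a replicate 2 rank of 98. At fib-1, which encodes the methyltransferase fibrillarin, the signal was 29.7 (rank 207), with replicate ranks of 14974 and 248. Both therefore ranked better in replicate 2. So did 15 of the 18 rps genes with an entry over the summit in both replicates. Of other genes with an IDR summit, 71 ranked better in replicate 2 and 22 in replicate 1. The third protein gene of the complex in the list, nol-56, had a signal of 19.6 (rank 1594) and no entry over the summit in replicate 1.

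Of 6 genes of the TOR and S6 kinase pathway, 4 had an entry and 0 an IDR summit. Of protein-coding genes other than rps, 49% had an entry and 1.05% of these an IDR summit. Counts over 6 genes are too small to tell the pathway from that background. The median signal of the 4 entries was 18.4, against 12.6 for genes other than rps. All 4 had an entry over the summit in both replicates, against 26.8% of genes other than rps. Their median ranks in replicates 1 and 2 were weaker, at 16613.5 and 14676, against 10278.5 and 9282. The difference was not tested. The TOR kinase gene let-363 had a signal of 19.8 (rank 1490), with ranks of 843 in replicate 1 and 28284 in replicate 2. The S6 kinase gene rsks-1 had 19.7 (rank 1516), with replicate ranks of 7469 and 10709. Of the small GTPase genes, raga-1 had 17.1 and rheb-1 had 12.9, while daf-15 and ragc-1 had no entry within 1 kb.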
